A study of Mus musculus with 12 samples.

Results

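The 51 genes described here are cell cycle genes, of which 31 act in mitosis and 20 in S phase. They were listed by symbol and function, with earlier results of these data known, and make up 51 of the 32285 genes counted in the series. Their transcripts were counted in single cells of mouse gonads, sequenced at embryonic day 12 (E12, 23 ± 3 tail somites), and summed over marker-defined supporting-like, progenitor-like, interstitial-like and germ-like cells. All 51 passed the filter on low counts in each of the 4 classes, so that none was lost to it.

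Wt1 encodes a zinc finger protein made in 2 splice variants that differ by the amino acids KTS between the last zinc fingers. Gonads of 6 groups were compared, with 2 libraries each: XX and XY wild type (WT) embryos, XX and XY -KTS KO embryos, homozygous for a germline Wt1 allele that cannot give the variant without KTS, and XX and XY +KTS KO embryos, homozygous for a germline allele that cannot give the variant with KTS. All groups were on a mixed B6CBAF1/JRj background, the alleles were constitutive and present in every cell of the embryo, and gonads of several embryos were pooled in 1 of the XX -KTS KO libraries and in both XY -KTS KO libraries. The counted 3' ends cannot tell the Wt1 variants apart, so the alleles themselves could not be checked. The sums over supporting-like cells held 222 to 344 CPM (counts scaled to a common library size) of Wt1 in the 12 libraries, and 568 to 803 CPM of Xist, the RNA of the inactive X chromosome, in XX libraries against at most 0.314 in XY libraries.

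A dividing cell copies its DNA in S phase and parts the copies in mitosis. The S-phase genes are transcribed from late G1 under E2F factors and include the MCM helicase, the enzymes of nucleotide supply and the E cyclins, whereas the mitotic genes are transcribed in G2 and M and include Cdk1 and its B cyclins, the kinesins of the spindle and the parts of the kinetochore. In the fetal gonad, progenitors and germ cells cycle, while pre-supporting cells leave the cycle as they commit. Sertoli cells of the testis then divide again, whereas early pre-granulosa cells of the ovary stay arrested.

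After filters on quality and doublets, 76976 of 103730 barcodes remained, 4665 to 8655 in a library, with a median of 10595 to 19274 UMIs (counted molecules) per cell. They fell into 20372 supporting-like, 14238 progenitor-like, 16246 interstitial-like and 7102 germ-like cells. A further 11168 cells were left unnamed, among them 8552 +KTS KO cells in 2 clusters, called Cyp11a1-led here. The steroidogenic gene Cyp11a1 headed the leading genes of 1 cluster and came next after Ctrb1 in the other. The 2 clusters held at most 7 cells of any other library. Pre-supporting-like was the only name with a score in these 2 clusters (1.34 and 1.67, each from 4 markers). The name was withheld because the genes at their head spoke more for a different cell type. The 2 clusters held 3672 and 1728 cells of the XX +KTS KO libraries, against 643 and 202 named supporting-like. Clusters were formed without the cell cycle genes. Even so, groups shared few of them. Supporting-like cells were mostly 1 pre-granulosa-like cluster in XX WT (71.8%) and 1 Sertoli-like cluster in XY WT gonads (81.1%), and a separate cluster held 99.2% of them in XX -KTS KO gonads and 99.6% in XY -KTS KO gonads. That cluster, led by Wfdc10, Wfdc13 and Cpa1, took the name pre-granulosa-like from 3 detected markers, with pre-supporting-like as the next best name (scores of 0.47 and 0.35). The authors reported no pre-granulosa cluster in -KTS KO gonads but did observe pre-supporting cells there, so the name is uncertain. The 2 XY +KTS KO libraries held different cells, as 3000 of 3143 supporting-like cells of replicate 1 were pre-granulosa-like and 263 of 275 of replicate 2 were pre-supporting-like. Those of replicate 1 were mostly in a cluster led by Cst12, Pde10a and Gm2044, with Fos, Btg2 and Foxl2 also among its leading genes. XX +KTS KO cells were pre-supporting-like in 601 of 643 and 195 of 202. Of XX +KTS KO supporting-like cells, 45.4% lay in a cluster led by Plac8, Egfl6 and Pax8, against 8.71% in XX WT. A further 19.8% lay in the named cluster with Cyp11a1 among its leading genes. That cluster was named pre-supporting-like on a score of 1.34, the same as that of the larger unnamed Cyp11a1-led cluster. Numbers of supporting-like cells ranged from 2466 to 3401 in WT and from 861 to 1437 in -KTS KO libraries, but were 643 and 202 in XX +KTS KO gonads and 3143 and 275 in XY +KTS KO libraries, so that a single library carried most +KTS KO cells of each sex. The 2 XY +KTS KO libraries stood apart from each other, with 212 Cyp11a1-led cells in replicate 1 and 2940 in replicate 2. Libraries of a pair shared 0.0347 to 0.389% of the barcodes of the smaller one. The labels number the libraries of a group as replicates and say nothing more, so p-values measure the spread between these libraries.

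The level of the 51 genes set the classes apart. Supporting-like cells held the fewest transcripts of the 31 mitotic genes, 371 to 2177 CPM summed over the genes in the 12 libraries, with a median of 587. Interstitial-like cells held 2372 to 5595 CPM, progenitor-like cells 3605 to 6247 CPM and germ-like cells 6515 to 7738 CPM. The ranges of progenitor-like and interstitial-like cells overlapped, whereas those of supporting-like and germ-like cells lay apart from all others. The 20 S-phase genes differed less between classes, with medians over the 12 libraries of 593 CPM in supporting-like, 1722 in interstitial-like, 2142 in progenitor-like and 2214 in germ-like cells. The last 2 classes overlapped, and in the 4 WT libraries progenitor-like cells held 2266 to 2550 CPM and germ-like cells 2129 to 2449. These class differences are descriptions and were not tested. In summed transcripts, fewer cycling cells and less RNA per cycling cell cannot be told apart.

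**Figure D1:**
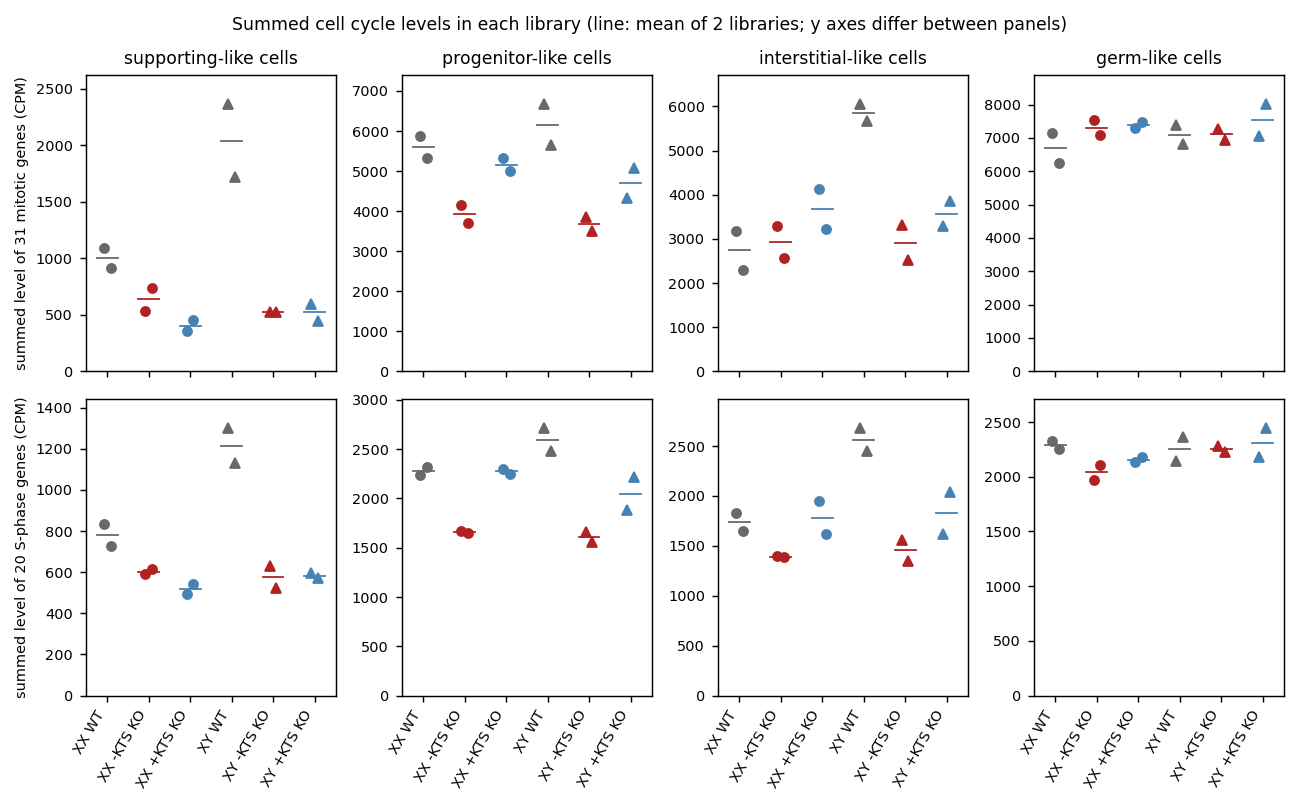
Summed CPM of the 31 mitotic genes (upper row) and the 20 S-phase genes (lower row) in each library, by class and group, with a line at the mean of the 2 libraries, circles for XX and triangles for XY; grey is WT, red -KTS KO and blue +KTS KO, and the y axes start at 0 and differ between panels. In supporting-like cells the 2 XY WT libraries lie above all 10 others in both rows. In germ-like cells the groups are mixed in the upper row, and the 2 XX -KTS KO libraries lie lowest in the lower row.

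In progenitor-like cells the mitotic genes were higher in cells rich in mitotic transcripts in every library, and most but not all S-phase genes were higher in cells rich in S-phase transcripts. The cells were thinned to 5000 UMIs each and called mitotic-high or S-high where the thinned cell held at least 10 UMIs of that list, with the gene in question left out of its own sorting. All 31 mitotic genes had more UMIs in cells that were only mitotic-high than in cells that were only S-high, in 12 of 12 libraries, and the median of their ratios was 14.4. Nusap1, a microtubule-binding protein of the spindle, had the widest ratio, with 0.943 UMIs per 5000 in mitotic-high against 0.0136 in S-high cells. Ube2c, the ubiquitin-conjugating enzyme that drives exit from mitosis, had 5.20 against 0.157. The narrowest ratio was that of Hmgb2, a chromatin protein present through much of the cycle, with 11.0 against 3.59. Cdk1, the kinase that starts mitosis, had a ratio of 4.04, and Mki67, the proliferation marker that coats mitotic chromosomes, one of 14.2.

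Of the 20 S-phase genes, 16 went the other way in every library, with a median ratio of 0.370 over the list. The clearest were Cdc6, which loads the MCM helicase onto origins, with 0.0127 UMIs in mitotic-high against 0.257 in S-high cells, and the E cyclins Ccne2 (0.0113 against 0.175) and Ccne1 (0.0378 against 0.275). Ung, which removes uracil from DNA, had 0.0781 against 0.513. Pclaf, a PCNA-binding factor placed in the S-phase list, was higher in mitotic-high cells in 12 of 12 libraries, at 2.58 against 1.87. Rrm1 and Tyms, enzymes of nucleotide supply, and Cdc45, part of the replicative helicase, varied in direction between libraries. Interstitial-like cells gave the same counts, with 31 mitotic genes higher and 16 S-phase genes lower, whereas in supporting-like cells, with enough sorted cells in 5 libraries, 31 mitotic genes were higher but 11 S-phase genes were lower and 8 varied in direction. The sorting used the other members of the lists, so this describes how the lists hang together and is no independent test.

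**Figure D2:**
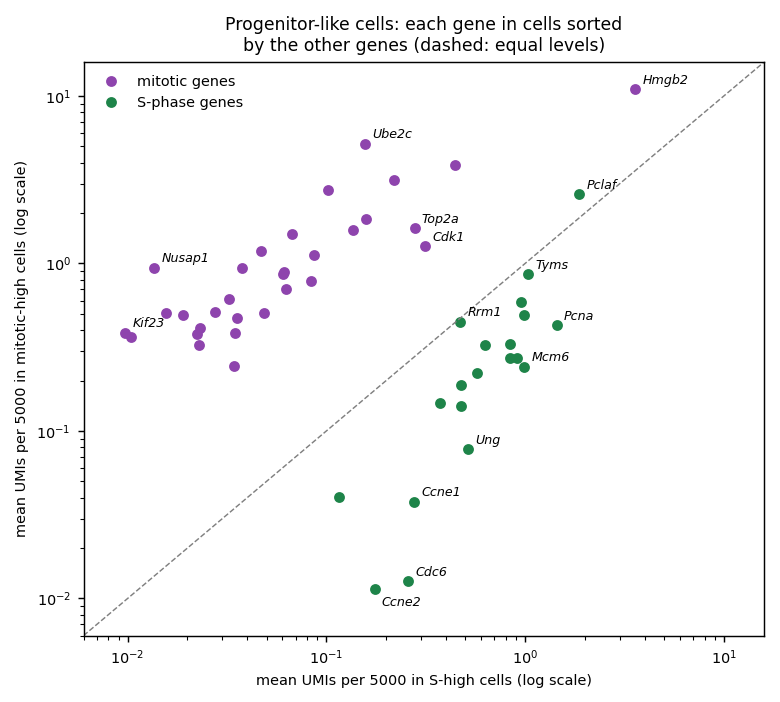
Mean UMIs of each member per 5000 UMIs in S-high (x axis) and mitotic-high (y axis) progenitor-like cells, both axes logarithmic, with a dashed line at equality. All 31 mitotic genes lie above the line and most S-phase genes below it, with Pclaf on the mitotic side.

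The lists also differed in the letters before their start sites, which the choice of members did not use. RefSeq promoters (GRCm38.p6, 250 bases before to 50 after the start) were at hand for 27 mitotic and 17 S-phase genes. The cell cycle homology region, CHR (TTTGAA or TTCGAA on either strand), is bound by the repressor and activator complexes that time mitotic genes. It was found in 22 of 27 mitotic promoters (81.5%) and 3 of 17 S-phase promoters (17.6%), against 21.7% of the promoters of 27025 genes. CCAAT on either strand was found in 85.2% and 76.5%, against 41.1%. An E2F motif (TTTGGCGC, TTTCCCGC, TTTCGCGC or TTTGCCGC on either strand) was found in 8 of 17 S-phase promoters (47.1%) but in 1 of 27 mitotic promoters, that of Cdk1, and in 2.6% of all. Matches on opposite strands can overlap, and letters in a window show neither binding nor regulation.

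The stretches before the RefSeq start that hold these motifs are given for 3 mitotic genes, with CHR and CCAAT letters, and 2 S-phase genes, with E2F letters. GENCODE places the starts of Cdk1 and Ube2c a little further upstream, so that the last bases of these 2 stretches lie inside the gene there. Motifs are in capitals, as written or as their reverse complement (ATTGG for CCAAT, for example), and overlapping matches run together. Coordinates are of GRCm38.p6, with the gene's strand in brackets, and the sequence reads 5′ to 3′ along that strand.
Mki67, chr7:135716452-135716587 (minus): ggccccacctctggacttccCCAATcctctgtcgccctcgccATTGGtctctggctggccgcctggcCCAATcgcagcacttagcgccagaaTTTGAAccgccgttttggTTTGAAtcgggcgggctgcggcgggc
Cdk1, chr10:69352913-69353140 (minus): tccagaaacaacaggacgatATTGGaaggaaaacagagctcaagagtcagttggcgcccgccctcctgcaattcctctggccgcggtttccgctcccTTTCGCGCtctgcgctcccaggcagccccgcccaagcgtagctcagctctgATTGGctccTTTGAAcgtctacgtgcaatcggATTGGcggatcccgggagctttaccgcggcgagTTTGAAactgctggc
Ube2c, chr2:164769681-164769925 (plus): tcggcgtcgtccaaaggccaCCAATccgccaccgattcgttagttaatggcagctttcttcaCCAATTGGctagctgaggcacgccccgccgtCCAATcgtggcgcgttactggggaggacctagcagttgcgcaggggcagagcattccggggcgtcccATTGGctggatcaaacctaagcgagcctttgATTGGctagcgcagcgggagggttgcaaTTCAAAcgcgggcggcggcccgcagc
Mcm5, chr8:75109336-75109508 (plus): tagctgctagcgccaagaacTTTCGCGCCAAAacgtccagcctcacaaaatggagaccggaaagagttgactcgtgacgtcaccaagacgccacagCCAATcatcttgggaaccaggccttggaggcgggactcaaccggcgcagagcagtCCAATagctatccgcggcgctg
Mcm6, chr1:128359706-128359835 (minus): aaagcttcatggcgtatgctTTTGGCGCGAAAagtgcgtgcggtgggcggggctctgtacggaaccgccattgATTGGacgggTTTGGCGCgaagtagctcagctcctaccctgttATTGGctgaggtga

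The first comparison asked how XY and XX supporting-like cells differed in WT gonads. Both lists were higher in XY WT. The 31 mitotic genes summed to 1092 and 914 CPM in the 2 XX WT libraries and to 2363 and 1719 in the 2 XY WT libraries (1003 ± 126 and 2041 ± 455, SD, n = 2), a ratio of 2.03. The 20 S-phase genes summed to 835 and 728 CPM in XX WT and to 1299 and 1129 in XY WT, a ratio of 1.55. No library of one sex reached those of the other in either sum. The size depended on the clustering, as the log2 difference of the mitotic sum was 1.02 here, 2.21 with the cell cycle genes kept in the clustering, and 2.69 both with log-normalized values and with only the listed genes left out.

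By edgeR's quasi-likelihood test at an adjusted p under 0.05, 31 of the 51 genes were higher in XY WT and none was lower, 21 of them mitotic and 10 S-phase, where 11.4% of the 15619 genes tested were higher. The median log2 fold change was 1.03 over the mitotic and 0.69 over the S-phase genes, against -0.015 over all genes tested. Cdk1 stood at 47.2 and 37.6 CPM in XX WT and at 202 and 122 in XY WT, with a log2 fold change of 1.93 ± 0.25 (SE, adjusted p = 0.000398). Cdc6 stood at 2.38 and 2.37 CPM in XX WT and at 10.4 and 7.68 in XY WT, a change of 1.92 ± 0.29 (adjusted p = 0.00102). Psrc1, a spindle protein, went from 9.42 and 8.40 CPM to 38.3 and 23.8, a change of 1.80 ± 0.29 (adjusted p = 0.00145). In these 3 genes the groups did not overlap. How many of all genes tested did not overlap was not counted, so this and later statements of overlap only describe values. Cdc45, Bub1 (a kinase of the spindle checkpoint), Tpx2, Kif23, Nusap1, Aurka (a kinase of the spindle pole) and Rrm2 followed, with changes between 1.37 and 1.62.

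Some of the best known markers of division did not pass the test between the sexes. Mki67 stood at 19.2 and 19.5 CPM in XX WT and at 33.0 and 38.5 in XY WT (log2 fold change 0.89 ± 0.31, adjusted p = 0.0647), and Ccnb1, the B cyclin partner of Cdk1, at 28.1 and 23.2 against 49.2 and 37.1 (0.75 ± 0.30, adjusted p = 0.102). Top2a, the topoisomerase that untangles chromosomes, passed at 1.17 ± 0.23 (adjusted p = 0.00493), as did Pcna, the clamp of the replication fork, at 0.81 ± 0.20 (adjusted p = 0.0172). The E cyclins parted. Ccne2 was higher in XY WT by 1.05 ± 0.27 (adjusted p = 0.017), whereas Ccne1 stood at 9.37 and 7.32 CPM in XX WT and 7.50 and 8.09 in XY WT, groups that overlapped. Mcm5, a subunit of the MCM helicase, differed by 0.32 ± 0.31 (adjusted p = 0.519). The count of 31 fell to 11 without XX WT replicate 2, to 14 without XY WT replicate 1 and to 20 without XX WT replicate 1, and the Sertoli-like and the pre-granulosa-like cells compared lay in different clusters.

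Loss of the -KTS variant was asked about in each sex against WT of that sex. In XY -KTS KO gonads nearly the whole list was lower. The mitotic genes summed to 521 and 525 CPM (523 ± 2.41, SD, n = 2), 3.90-fold below XY WT, and the S-phase genes to 630 and 522 CPM (576 ± 76.9), 2.11-fold below. The log2 change of the mitotic sum, -1.96, was -2.60 to -2.76 under those 3 other clusterings. Of the 51 genes, 49 were lower and none was higher, all 31 mitotic and 18 of the 20 S-phase genes, where 16.7% of the genes tested were lower. The median log2 fold change was -2.26 over mitotic and -1.08 over S-phase genes, and -0.003 over all genes tested. The 2 that did not pass were Slbp, the histone mRNA binding protein (-0.05 ± 0.15, adjusted p = 0.848), and the helicase subunit Mcm7 (-0.38 ± 0.15, adjusted p = 0.0738).

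Cdc6 had the lowest fold change, from 10.4 and 7.68 CPM in XY WT to 1.09 and 0.754 in XY -KTS KO (-3.29 ± 0.33, adjusted p = 4.51e-05). Kif23, the kinesin of the midbody, went from 23.4 and 17.4 CPM to 2.13 and 2.78 (-3.05 ± 0.28, adjusted p = 2.52e-05). Cdk1 went from 202 and 122 CPM to 24.1 and 18.7 (-2.92 ± 0.26, adjusted p = 2.38e-05). All 3 KO levels lay far below both WT libraries. Ckap2l, a spindle protein, went from 19.7 and 16 CPM to 2.55 and 2.26 (-2.89 ± 0.44, adjusted p = 0.000648). Pimreg, which acts at the metaphase to anaphase step, Bub1, Pclaf, Top2a, Rrm2 and Tpx2 fell by 2.74 to 2.87 on the log2 scale. Mki67 went from 33.0 and 38.5 CPM to 4.87 and 6.37 (-2.67 ± 0.34, adjusted p = 0.000186), and Ccnb1 from 49.2 and 37.1 to 9.69 and 11.1 (-2.05 ± 0.32, adjusted p = 0.000651).

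The S-phase genes of XY -KTS KO cells fell unevenly. Ung went from 41.4 and 46.0 CPM to 7.23 and 6.98 (-2.62 ± 0.21, adjusted p = 1.55e-05), and Mcm5 from 32.8 and 39.4 to 13.5 and 13.3 (-1.43 ± 0.32, adjusted p = 0.00596). Pcna fell from 117 and 89.4 CPM to 60.6 and 42.9 (log2 fold change -1.0 ± 0.21, adjusted p = 0.00402), Ccne2 by 1.72 ± 0.28 on the log2 scale (adjusted p = 0.000924) and Ccne1 by 0.83 ± 0.26 (adjusted p = 0.0344). Among mitotic genes Hmgb2 had the smallest change, from 432 and 392 CPM to 170 and 202 (-1.15 ± 0.16, adjusted p = 0.000383).

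In XX -KTS KO supporting-like cells the fall was smaller. The mitotic genes summed to 535 and 739 CPM (637 ± 145), 1.57-fold below XX WT, and the S-phase genes to 590 and 615 (603 ± 17.8), 1.30-fold below. Of the 51 genes, 17 were lower (12 mitotic and 5 S-phase) and none was higher, where 9.42% of the genes tested were lower. The medians were -0.86 for mitotic and -0.51 for S-phase genes, and -0.006 for all genes tested. Kif23 went from 7.48 and 7.23 CPM in XX WT to 2.19 and 3.00 (-1.52 ± 0.27, adjusted p = 0.00358), Mki67 from 19.2 and 19.5 to 6.81 and 9.15 (-1.28 ± 0.33, adjusted p = 0.0202) and Top2a from 46.4 and 44.5 to 17.2 and 22.3 (-1.20 ± 0.24, adjusted p = 0.00577). The KO libraries lay below both WT libraries in each.

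Among S-phase genes, Ung went from 27.3 and 25 CPM in XX WT to 9.56 and 7.36 in XX -KTS KO (-1.62 ± 0.21, adjusted p = 0.000532), and Uhrf1, which brings the maintenance DNA methyltransferase to new DNA, from 16.2 and 16.5 to 7.98 and 8.36 (-1.0, adjusted p = 0.0206). Pcna (-0.17 ± 0.21, adjusted p = 0.619), Ccne1 (-0.57, adjusted p = 0.164) and Ccne2 (-0.71, adjusted p = 0.114) did not pass, nor did Cdk1 (-0.71 ± 0.25, adjusted p = 0.0696), which stood at 47.2 and 37.6 CPM in XX WT and 22.9 and 28.9 in XX -KTS KO, or Mcm5 (-0.99 ± 0.32, adjusted p = 0.0551). The XX result depended on how cells were grouped. Untrimmed mitotic sums were 1384 and 1195 CPM in the pre-granulosa-like cells of XX WT and 206 and 320 in its pre-supporting-like cells. The XX -KTS KO cells, nearly all in the separate cluster named pre-granulosa-like, had 502 and 712, below the WT cells of that name and above the pre-supporting-like ones. WT and KO cells of that name lay in different clusters, and these values were not tested. With clusters built on log-normalized values, the summed mitotic level was higher in XX -KTS KO by 0.33 on the log2 scale in place of lower by 0.66, and Mki67 and Top2a changed sign. The sum was also higher, and both genes changed sign, with only the listed genes left out of the clustering. The 17 calls became 3 without XX -KTS KO replicate 1, 5 without XX WT replicate 1 and 7 without XX WT replicate 2, and 34 without the filter on low counts.

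The test of the difference between the 2 sexes' responses to loss of -KTS, which rests on the same 8 libraries, passed for 13 genes, 8 mitotic and 5 S-phase, all with a larger fall in XY, where 3.78% of the genes tested passed in that direction. The 13 calls became 3 without XY WT replicate 1, XX WT replicate 2 or XY -KTS KO replicate 2, 4 without XX WT replicate 1 or XX -KTS KO replicate 2, 5 without XY -KTS KO replicate 1 and 20 without XY WT replicate 2. All were lost with only the listed genes left out of the clustering. The count rose with log-normalized values and with the cell cycle genes kept in the clustering. The mitotic sum was 535 and 739 CPM in XX -KTS KO gonads and 521 and 525 in XY -KTS KO, whereas it was 1092 and 914 in XX WT and 2363 and 1719 in XY WT. For Cdk1 the fold changes were -0.71 in XX and -2.92 in XY, a difference of -2.21 ± 0.35 (adjusted p = 0.00579), with 22.9 and 28.9 CPM in XX -KTS KO gonads and 24.1 and 18.7 in XY -KTS KO.

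**Figure D3:**
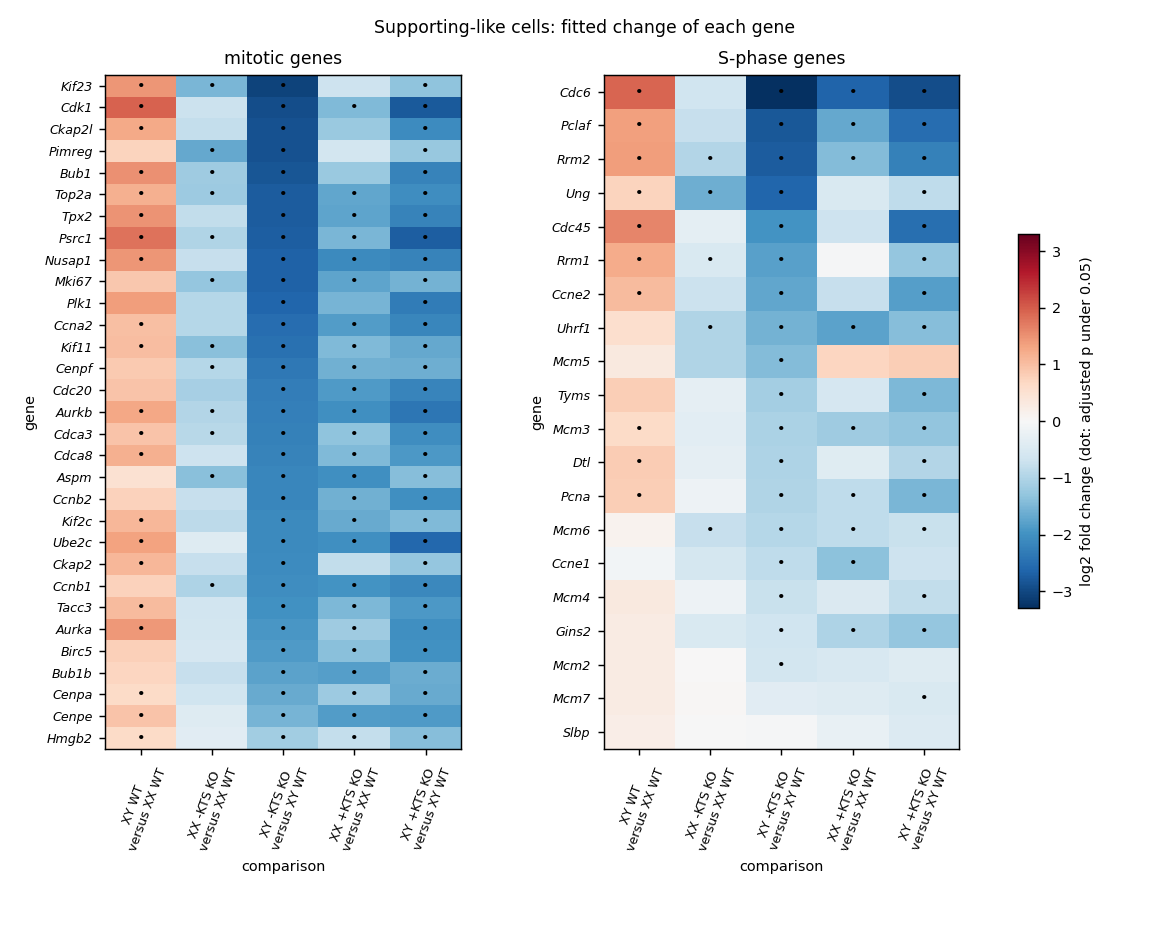
Log2 fold change of each of the 51 genes in supporting-like cells for 5 comparisons (columns), ordered within each list by the change in XY -KTS KO, with red for higher, blue for lower and a dot where the adjusted p was under 0.05. The XY -KTS KO column has dots in 49 rows and the XX -KTS KO column in 17, and XY WT against XX WT is positive in nearly all rows.

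Markers of other cell types were present in the supporting-like sums. The 6 germ cell markers summed to 24.2 to 39.1 CPM in XX WT, 35.8 to 48.6 in XY WT, 11.4 to 48.7 in XX -KTS KO and 12 to 17.1 in XY -KTS KO, against 6050 to 8798 in germ-like cells. The 5 steroidogenic markers summed to 43.9 to 82.5 CPM over WT libraries, to 103 to 152 in -KTS KO and to 149 to 524 in +KTS KO libraries. The part of either in the results was not tested.

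Loss of the +KTS variant was compared with the same WT libraries, so the WT values are shared with the comparisons above. In the class as named, XX +KTS KO cells had mitotic sums of 358 and 452 CPM (405 ± 66.2), 2.48-fold below XX WT, and XY +KTS KO cells 597 and 444 CPM, 3.92-fold below XY WT. The S-phase sums were 1.51-fold and 2.08-fold below WT. In XX +KTS KO, 34 of 51 genes were lower (25 mitotic and 9 S-phase; 4% of the genes tested were lower), and in XY +KTS KO, 47 were lower (31 and 16; 13.1%), with none higher in either. The median mitotic gene changed by -1.54 in XX and by -2.02 in XY, and the median S-phase gene by -0.72 and -1.28, against -0.010 and 0.038 over all genes tested.

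These +KTS KO values rested on the make-up and the naming of the class. Among pre-supporting-like cells alone the direction turned in XX, with untrimmed mitotic sums of 206 and 320 CPM in XX WT and 380 and 490 in XX +KTS KO. In XY they were 1749 and 1461 CPM in WT and 495 and 416 in +KTS KO. These values within a type were chosen after seeing the data and not tested. The pre-supporting-like cells of XX WT and XX +KTS KO were different mixtures of clusters. In an alternative chosen after seeing the data, the 2 unnamed Cyp11a1-led clusters were counted as supporting-like cells. No member was then called in XX and 24 were in XY, with the share of all genes not counted. The mitotic sum of XX +KTS KO was then higher than that of XX WT by 0.50 on the log2 scale. In XX, 1 gene was called without XX +KTS KO replicate 1, 8 without XX WT replicate 1 and 16 without XX +KTS KO replicate 2. As first laid down, the clustering was to leave out the listed cell cycle genes and the histone genes. The main clustering also left out 114 genes that followed the sums of the members. With only the listed genes kept out, the mitotic sum was higher than in WT by 4.59 in XX and 1.05 in XY +KTS KO.

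Within the class as named, Cdk1 stood at 15.8 and 15.2 CPM in XX +KTS KO (-1.45 ± 0.27, adjusted p = 0.00885) and at 21.4 and 26.7 in XY +KTS KO (-2.77 ± 0.26, adjusted p = 0.000168). Ccnb1 stood at 5.63 and 7.73 CPM in XX (-1.97 ± 0.36, adjusted p = 0.00866) and at 12.5 and 5.35 in XY (-2.12 ± 0.33, adjusted p = 0.00138). In XY +KTS KO, Mki67 was uneven between the libraries, at 16.1 and 5.88 CPM (-1.55 ± 0.33, adjusted p = 0.00728), and in XX +KTS KO it stood at 4.89 and 6.96 (-1.75 ± 0.38, adjusted p = 0.018). Top2a fell by 1.72 ± 0.26 on the log2 scale in XX (adjusted p = 0.00371) and by 2.04 ± 0.25 in XY (adjusted p = 0.000402).

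Among the S-phase genes Pcna fell by 0.84 ± 0.21 in XX +KTS KO (adjusted p = 0.0373) and by 1.51 ± 0.21 in XY +KTS KO (adjusted p = 0.000912) on the log2 scale. Ccne1 fell by 1.36 ± 0.31 in XX (adjusted p = 0.0231) but not past the threshold in XY (-0.68, adjusted p = 0.0972), and Ccne2 fell by 1.83 ± 0.30 in XY (adjusted p = 0.00195) but not past it in XX (-0.77, adjusted p = 0.195). The difference between the sexes did not pass for either gene. Of the 51 genes, Mcm5 was the only one with a positive fold change in both sexes. It stood at 61.9 and 31.4 CPM in XX +KTS KO gonads and 82 and 43.1 in XY +KTS KO, against 27.4 to 39.4 in WT, at 0.70 ± 0.32 (adjusted p = 0.217) and 0.82 ± 0.31 (adjusted p = 0.0781). Over the mean of both sexes, a comparison added after seeing the data, 50 members were lower (12% of the genes tested were lower; 13 to 51 members called over 17 alternatives) and Mcm5 alone was higher (10.6% of genes were higher), by 0.76 (adjusted p = 0.0312, called in 10 of 17 alternatives). The call was lost without either XX WT library, XY WT replicate 1, XX +KTS KO replicate 1 or XY +KTS KO replicate 1, with doublets kept and with the cell cycle genes kept in the clustering. The difference between the sexes passed for 2 members, Cdc45 and Rrm1 (3.11% of genes passed in that direction).

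Progenitor-like cells were compared over both sexes together. In -KTS KO gonads the list was lower. The mitotic genes summed to 5869 and 5318 CPM in XX WT and 6670 and 5651 in XY WT, and to 4149 and 3693 in XX -KTS KO gonads and 3846 and 3505 in XY -KTS KO, so that the 4 KO libraries lay below the 4 WT libraries. The log2 change of the sum was -0.63, and that of the S-phase sum -0.58. Of the 51 genes, 45 were lower and none was higher (28 mitotic and 17 S-phase), where 10.6% of the 14711 genes tested were lower. The count was 28 with doublets kept and 30 with the cell cycle genes kept in the clustering. The medians were -0.62 for mitotic and -0.57 for S-phase genes, and 0.014 over all genes tested.

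Pimreg had the lowest fold change among mitotic genes, from 44.7 to 74.8 CPM in WT to 27.1 to 31.8 in -KTS KO libraries (-0.96 ± 0.15, adjusted p = 0.00117). Cdk1 stood at 185 to 296 CPM in WT and 110 to 142 in -KTS KO (-0.87 ± 0.15, adjusted p = 0.00228), and Top2a at 303 to 361 and 165 to 196 (-0.85 ± 0.11, adjusted p = 0.00038). Mki67 stood at 119 to 163 CPM in WT and 66.7 to 88.8 in -KTS KO (-0.85 ± 0.21, adjusted p = 0.0144), and Ccnb1 changed by -0.65 ± 0.12 (adjusted p = 0.00265). None of these 5 genes overlapped between the genotypes, a description given without the share of all genes. Aurkb, the kinase that corrects spindle attachments, changed by -0.90 (adjusted p = 0.000761).

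The S-phase genes of progenitor-like cells were led by Ung, at 42.7 to 50.5 CPM in WT and 18.2 to 19.5 in -KTS KO libraries (-1.34 ± 0.11, adjusted p = 1.47e-05), and Uhrf1, at 60.5 to 79.5 and 26.9 to 36.1 (-1.14 ± 0.14, adjusted p = 0.000248). Mcm5 stood at 68.2 to 88.1 CPM in WT and 38.6 to 42.5 in -KTS KO (-0.96 ± 0.10, adjusted p = 6.81e-05), Cdc6 changed by -0.92 (adjusted p = 0.000413) and Pcna by -0.72 ± 0.12 (adjusted p = 0.00179). The 6 genes that did not pass were Ube2c, Birc5, Nusap1, Slbp and both E cyclins, with Ccne1 at -0.21 (adjusted p = 0.183) and Ccne2 at -0.43 (adjusted p = 0.0599). Tested within each sex, comparisons added after seeing the data, 14 members were lower in XX (3.61% of genes; 1 to 27 over 12 alternatives) and 32 in XY (7.25%; 6 to 42), and the difference between the sexes passed for no member (0.258% of genes passed). The WT and -KTS KO cells lay in different clusters.

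In +KTS KO progenitor-like cells, set against the same WT libraries, 2 members were lower and none was higher, where 1.92% of the genes tested were lower. They were Bub1, at 52.1 to 58.7 CPM in WT and 38.5 to 45.8 in +KTS KO (-0.41 ± 0.08, adjusted p = 0.0177), and Cdc20, the activator of the anaphase-promoting complex, at 108 to 151 and 80.1 to 92.1 (-0.54 ± 0.13, adjusted p = 0.0394). The medians were -0.24 and -0.18 for mitotic and S-phase genes, against 0.003 over all genes tested. With the cell cycle genes kept in the clustering, 32 members were called and the mitotic sum was higher than in WT by 1.05 on the log2 scale. The share of all genes called there was not counted. Ung (-0.10, adjusted p = 0.657) and Mcm5 (-0.14, adjusted p = 0.473) did not pass, and the groups overlapped in both.

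Interstitial-like cells, the other somatic class, were compared between the WT sexes first. XX WT cells had mitotic sums of 3183 and 2296 CPM and XY WT cells of 6050 and 5673, a log2 difference of 1.10. In this comparison, added after seeing the data, 22 members were higher in XY WT (19 mitotic and 3 S-phase) and none was lower, where 1.6% of genes were higher, and over the alternatives the count ran from 0 to 50. Bub1 stood at 20.6 and 20.9 CPM in XX WT and 53.6 and 57.9 in XY WT (1.43 ± 0.15, adjusted p = 0.00145). XX WT libraries held 477 and 417 of these cells.

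Over both sexes, 31 of 51 genes were lower in -KTS KO interstitial-like cells and none was higher, where 16.5% of the 14528 genes tested were lower. The calls were 17 of the 20 S-phase and 14 of the 31 mitotic genes, with medians of -0.60 and -0.41 (0.023 over all genes tested). These medians average sexes that differed, as the mitotic median was 0.13 in XX and -1.01 in XY and the S-phase median -0.42 and -0.88. Ung stood at 30.3 to 44.5 CPM in WT and 11.3 to 12.2 in -KTS KO libraries (-1.66 ± 0.11, adjusted p = 3.47e-06), Uhrf1 at 45.9 to 75.5 and 20.3 to 24.2 (-1.39 ± 0.13, adjusted p = 2.32e-05) and Mcm5 at 57.4 to 91.0 and 34.1 to 39.8 (-0.98 ± 0.11, adjusted p = 0.000103). In these 3 the genotypes did not overlap. The 31 calls became 20 without XX WT replicate 1 or XY -KTS KO replicate 2, and 47 at a cluster resolution of 1.2 and with the cell cycle genes kept in the clustering. In the latter the log2 changes of the mitotic and S-phase sums were -3.06 and -1.31 in place of -0.56 and -0.60. Pcna changed by -0.74 ± 0.14 (adjusted p = 0.00243) and Ccne2 by -0.59 ± 0.16 (adjusted p = 0.0179).

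The mitotic sum of interstitial-like cells was 3297 and 2574 CPM in XX -KTS KO gonads and 3318 and 2514 in XY -KTS KO, next to the 3183 and 2296 of XX WT. In the comparisons within each sex 44 members were lower in XY -KTS KO (27 mitotic and 17 S-phase, where 12.4% of genes were lower). In XX -KTS KO 4 members (7.84%) were lower, near the 7.69% of all genes tested. The 4 were Mcm5 (-0.80 ± 0.16, adjusted p = 0.00806), Mcm6 (-0.61), Ung (-1.45, adjusted p = 0.000312) and Uhrf1 (-1.19), all S-phase genes. These comparisons were added after seeing the data, and the counts ran from 18 to 50 in XY and from 2 to 41 in XX over the alternatives. Mki67 in XX stood at 63.7 and 61.5 CPM in WT and 71.5 and 56.3 in -KTS KO (0.03, adjusted p = 0.959), and in XY at 102 and 155 against 52.8 and 58.0 (-1.21, adjusted p = 0.00946). The difference between the sexes passed for 1 member, Bub1 (-1.37 ± 0.21, adjusted p = 0.0347, where 0.0826% of genes passed in that direction) and for none without any 1 of the 8 libraries. The -KTS KO cells lay almost wholly (99.9% in XX and 99.8% in XY) in 1 cluster, apart from most WT cells. It also held 162 XX +KTS KO cells, 8.57% of the interstitial-like cells of that group. It was named interstitial-like on a score of 1.52, with Col1a1 among its leading genes. Its next best name, at 1.47, was mesenchyme of the mesonephric border, a type outside the 4 classes. A cluster of that name held 907 XX WT and 521 XY WT cells, against 36 of XX -KTS KO. The part of this naming in the comparison was not tested.

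In +KTS KO interstitial-like cells 1 of the 51 genes (1.96%) was lower, near the 2.11% of all genes tested that were lower. It was Ccne1, at 26.6 to 37.1 CPM in WT and 18.7 to 21.9 in +KTS KO libraries (-0.55 ± 0.13, adjusted p = 0.0399). Ung (-0.30, adjusted p = 0.149) and Mcm5 (-0.01, adjusted p = 0.98) did not pass. The medians were -0.11 for mitotic and -0.23 for S-phase genes, against 0.010 over all genes tested. The mitotic median averages sexes that went opposite ways. The mitotic sum was 3183 and 2296 CPM in XX WT and 4122 and 3223 in XX +KTS KO gonads, but 6050 and 5673 in XY WT and 3285 and 3847 in those of XY +KTS KO. The mitotic median was 0.44 in XX and -0.69 in XY, and the S-phase median -0.05 and -0.46. Within each sex, comparisons added after seeing the data, no member was called in XX (0.785% of genes were called; 0 to 6 members over 12 alternatives) and 5 were lower in XY (2.11% of genes lower; 1 to 45 members). The 5 were Bub1 (-0.98 ± 0.15, adjusted p = 0.00497), Cdc45, Cdc20, Psrc1 and Cdc6. Over both sexes, 26 members were called with clusters built on log-normalized values, where the share of all genes called was not counted. The difference between the sexes passed for Bub1 (-1.45 ± 0.21, adjusted p = 0.0179; 0.117% of genes passed in that direction), with 0 to 2 members called without 1 library.

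Germ-like cells had no member called in either KO, where 0.0508% and 0.0363% of the 13773 genes tested were called for -KTS KO and +KTS KO. At an unadjusted p under 0.05 there were 4 members for -KTS KO (1 mitotic and 3 S-phase) and 3 for +KTS KO (2 and 1), where 13.3% and 11.1% of all genes tested passed that threshold, and DESeq2 called 0 in both. Mitotic sums lay between 6249 and 8009 CPM and S-phase sums between 1974 and 2442 in the 12 libraries. The lowest S-phase sums were those of XX -KTS KO, at 1974 and 2109 CPM. Cdk1 stood at 146 to 183 CPM in WT and 137 to 181 in -KTS KO libraries (-0.00, adjusted p = 0.998), and Pcna at 253 to 297 and 255 to 318. Ung stood at 171 to 214 CPM in WT and at 131 to 174 in -KTS KO libraries (-0.34 ± 0.11, adjusted p = 0.253).

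Ung and Mcm5 were lower in -KTS KO cells of all 3 somatic classes under each of the 17 alternatives run. So was Pimreg. Of the 9 alternatives that kept every library, it was called in 9 in supporting-like, 8 in progenitor-like and 9 in interstitial-like cells. Over both sexes, where 47 members were lower in supporting-like cells (19.2% of the genes tested were lower; 16 to 50 members called over the 17 alternatives), Ung changed by -2.12 in supporting-like, -1.34 in progenitor-like and -1.66 in interstitial-like cells, and was called in 17 of 17 alternatives in each class, over which it ranged from -2.24 to -2.04, from -1.38 to -1.08 and from -1.71 to -1.48. Mcm5 changed by -1.21, -0.96 and -0.98 and was likewise called in 17 of 17 in each. In germ-like cells Ung was called in 0 of 17, at -0.39 to -0.27. Mcm2, a subunit of the same helicase as Mcm5, stood in supporting-like cells at 22.8 and 23.7 CPM in XX WT and 23.1 and 24.2 in XX -KTS KO (0.02, adjusted p = 0.939), and at 25.8 and 30.2 in XY WT and 19.6 and 17.4 in XY -KTS KO (-0.60 ± 0.15, adjusted p = 0.0112). Its change was -0.31 ± 0.10 in progenitor-like (adjusted p = 0.0417) and -0.36 ± 0.11 in interstitial-like cells (adjusted p = 0.0234). Ung was also lower in +KTS KO supporting-like cells over both sexes (-0.67, adjusted p = 0.00886). It was called there in 7 of the 9 alternatives that kept every library. These genes were singled out after their values were seen. Ung lies at chr5:114130386-114139323 on the plus strand and Mcm5 at chr8:75109569-75128439 on the plus strand (GRCm38).

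**Figure D4:**
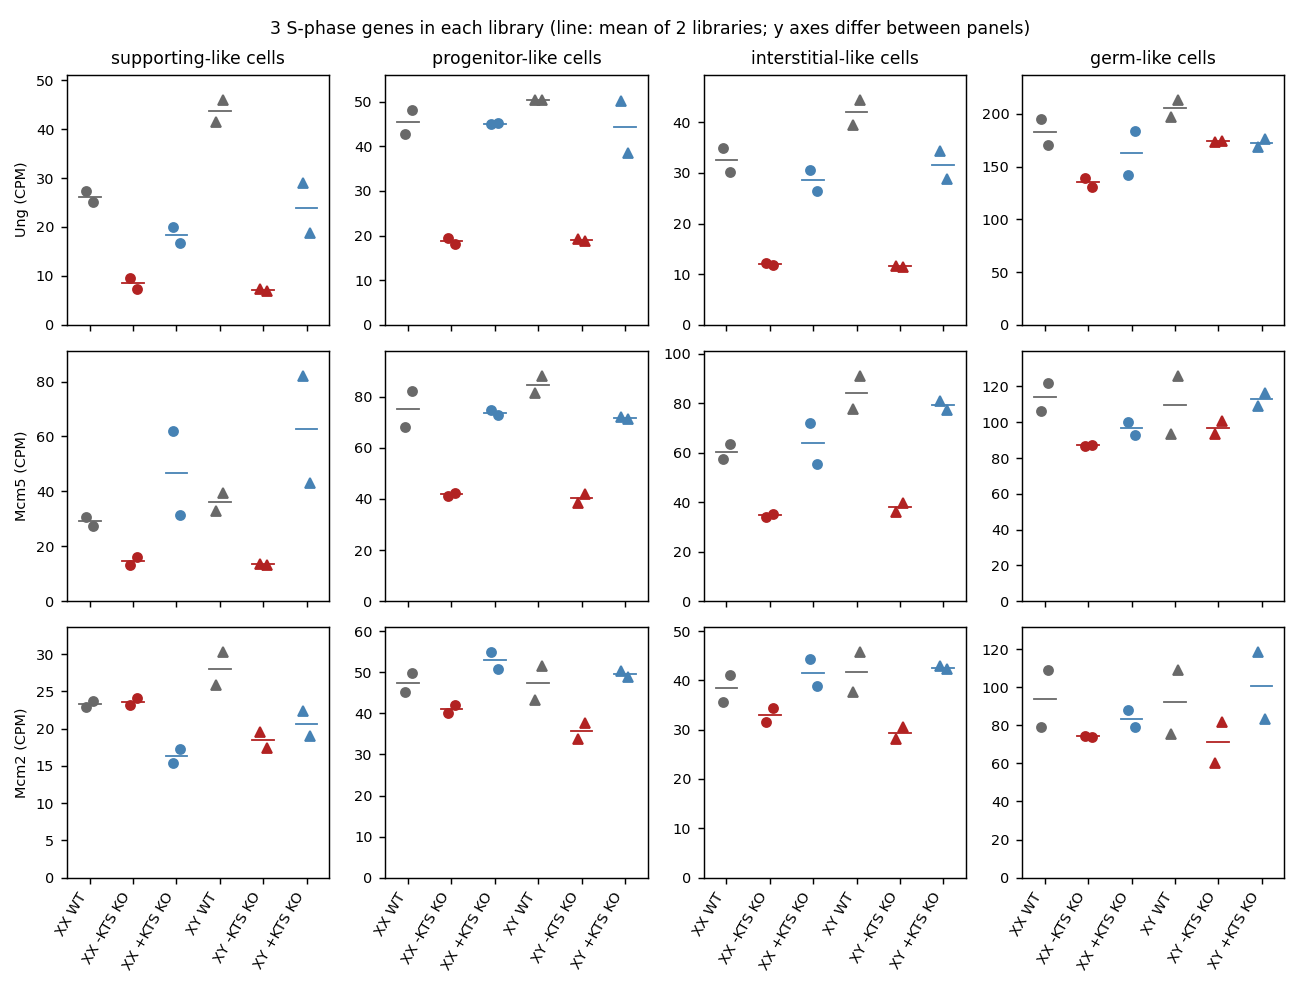
CPM of Ung, Mcm5 and Mcm2 (rows) in each library by group in the 4 classes (columns), with a line at the mean of the 2 libraries, circles for XX and triangles for XY; grey is WT, red -KTS KO and blue +KTS KO, and y axes differ between panels. In the 3 somatic classes the -KTS KO libraries of Ung lie below every WT library, in germ-like cells of Ung the genotypes overlap, and the -KTS KO libraries of Mcm2 lie nearer to WT.

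Genes of the cell cycle outside the 51 were read from 3 further lists. In XY -KTS KO supporting-like cells 24 of 32 other S-phase genes and 35 of 45 other mitotic genes were lower (16.7% of all genes tested), with 0 and 1 higher (13.6%), and medians of -1.16 and -1.69. In XX -KTS KO the counts were 0 and 8 lower (9.42% of all genes). In XY WT against XX WT, 16 and 24 were higher (11.4% of all genes) and none was lower. In -KTS KO progenitor-like cells 24 and 35 were lower (10.6% of all genes), and in -KTS KO interstitial-like cells 25 and 20 (16.5%), with none higher in either. None passed in germ-like cells (0.0508% of all genes for -KTS KO and 0.0363% for +KTS KO).

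The brakes and the D cyclins did not move as one group. Of the 10 tested, 4 were higher and 4 lower in XY -KTS KO supporting-like cells, where 13.6% of all genes were higher and 16.7% lower. Ccnd1, the D cyclin that carries growth signals into G1, went from 75.9 and 56.5 CPM in XY WT to 3.92 and 1.37 (-4.64 ± 0.67, adjusted p = 0.000429), and from 25 and 19.0 in XX WT to 3.20 and 4.72 in XX -KTS KO (-2.49 ± 0.63, adjusted p = 0.0198). Cdkn1b, the inhibitor p27, stood at 31.2 and 40.0 CPM in XY WT and at 199 and 256 in XY -KTS KO (2.67 ± 0.29, adjusted p = 6.86e-05), next to the 189 and 199 of XX WT. It was lower in XY WT than in XX WT by 2.44 ± 0.28 on the log2 scale (adjusted p = 0.000218). Cdkn1c, the inhibitor p57, was lower in XY WT than in XX WT (-1.73), and lower in XX -KTS KO than in XX WT, from 3352 and 2920 CPM to 1819 and 1642 (-0.86). In XY it went the other way per cell. XY WT had 22209 and 34056 UMIs of Cdkn1c in 2496 and 2466 cells. XY -KTS KO had 38924 and 31058 UMIs in 1437 and 1233 cells.

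In +KTS KO supporting-like cells the inhibitor Cdkn2b stood at 12.9 and 6.18 CPM in XX and at 9.36 and 7.75 in XY, against at most 1.23 in WT (3.27 ± 0.39, adjusted p = 0.00114, and 4.67 ± 0.44, adjusted p = 0.000157). In -KTS KO progenitor-like cells Ccnd1 changed by -2.16 ± 0.21 (adjusted p = 6.25e-05) and Ccnd2 by -2.62 ± 0.21 (adjusted p = 1.67e-05), whereas Cdkn1c was higher by 0.83 ± 0.12 (adjusted p = 0.000634). In -KTS KO interstitial-like cells Ccnd1 changed by -1.72 (adjusted p = 3.16e-05), Ccnd2 by -1.70 ± 0.19 (adjusted p = 7.94e-05) and Cdkn1a, the inhibitor p21, by -2.83 ± 0.31 (adjusted p = 7.76e-05).

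Cells were also counted by state. At 5000 UMIs per cell, 7.43% (95% exact binomial interval 6.54 to 8.40) and 6.08% (5.29 to 6.94) of XX WT supporting-like cells were mitotic-high, against 21.4% (19.8 to 23.1) and 15.4% (14.0 to 16.9) in XY WT. The intervals cover counting error only, and at most 1.46% of the supporting-like cells of a library lay at the limit of 10 UMIs or 1 below it. XY -KTS KO libraries had 1.77% and 1.67%, and XX -KTS KO libraries 3.53% and 3.14%. XX +KTS KO libraries had 0.673% and 2.50%, which are 4 and 5 cells, and XY +KTS KO libraries 4.82% and 1.87%. In the class as named each KO library lay below both WT libraries of its sex, also with limits of 5 and 20 UMIs. At 5 UMIs the shares were 8.42 to 9.54% in XX WT and 20.9 to 26.6% in XY WT, against 2.69 to 6.28% in the KO libraries of XX and 2.99 to 6.25% in those of XY. At 20 UMIs they were 4.60 to 5.89% and 11.4 to 15.9% in WT, against 0.505 to 2.05% and 1.33 to 3.64%. With the Cyp11a1-led clusters counted as supporting-like, the direction of the means turned in XX +KTS KO (9.25% against 6.75% in XX WT), with libraries at 7.18% and 11.3% that overlapped those of XX WT, whereas XY +KTS KO libraries, at 4.61% and 9.17%, stayed below XY WT. Without thinning the shares were 9.94% and 10.6% in XX WT, 25.7% and 23.2% in XY WT, 6.26% and 8.19% in XY -KTS KO and 12.8% and 10.5% in XX -KTS KO, so that the order of the XX groups depended on depth. S-high cells were 5.12% in XX WT, 14.6% in XY WT, 1.42% in XX -KTS KO gonads and 1.08% in XY -KTS KO (means of 2 libraries). Without thinning the S-high shares of the libraries overlapped, at 36.1% and 39.6% in XX WT, 34.1% and 49.4% in XY WT, 43.5% and 35.5% in XX -KTS KO gonads and 30.4% and 35.7% in those of XY -KTS KO, so the S-high order rests on the thinned cells.

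Within thinned cells of XX WT, 8.95% of the pre-granulosa-like and 0.921% of the pre-supporting-like cells were mitotic-high. In XY WT the shares were 19.6% of the Sertoli-like and 12.7% of the pre-supporting-like cells. The Cyp11a1-led cells, unnamed, held 8.27% and 12.4% in the XX +KTS KO libraries and 1.79% (3 of 168 cells) and 9.84% in those of XY +KTS KO. Without thinning the libraries had 11.0% and 24.8% in XX and 2.36% and 14.9% in XY.

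Progenitor-like cells were mitotic-high in 57.9% and 59.7% of XX WT and 71.3% and 65.6% of XY WT cells, against 41.5% and 38.8% in XX -KTS KO gonads and 35.9% and 29.9% in XY -KTS KO. The 4 KO libraries lay below the 4 WT libraries, also at limits of 5 UMIs (68.7 to 84.9% against 36.5 to 49.1%) and 20 UMIs (45.8 to 51.5% against 24.0 to 32.3%) and without thinning, where WT libraries had 70.1 to 82.7% and -KTS KO libraries 44.2 to 58.8%. XX +KTS KO libraries had 58.4% and 53.4%, and XY +KTS KO libraries 52.5% and 50.9%, so that those of XX overlapped WT. Among interstitial-like cells 26.7% and 22.1% were mitotic-high in XX WT, 55.2% and 55.5% in XY WT, 26.2% and 21.0% in XX -KTS KO gonads and 25.8% and 18.9% in XY -KTS KO. There the 2 XY WT libraries stood alone, as without thinning (64.6% and 69.2% against 30.8 to 36.8% in XX WT and -KTS KO libraries). Nearly all germ-like cells, 99.42 to 100% in a library, were mitotic-high. Hmgb2 alone made up 26.3 to 33.9% of their mitotic sum and was found in 99.9 to 100% of the thinned cells. Its share was 22.1 to 28.1% in progenitor-like cells. The call marks cells rich in mitotic transcripts and in no class counts cells in mitosis. Without Hmgb2, germ-like cells still held untrimmed mitotic sums of 4392 to 5508 CPM. Their S-high shares were 66.1% and 67.8% in XX WT gonads, against 49.4% and 53.5% in those of XX -KTS KO embryos and 53.0% and 62.0% in those of XX +KTS KO, so that the XX KO libraries lay below XX WT. The XX -KTS KO libraries also lay below at limits of 5 UMIs (89.0% and 91.6% against 95.8% and 96.7%) and 20 UMIs (2.67% and 4.08% against 4.64% and 6.61%) and without thinning, whereas those of XX +KTS KO overlapped XX WT at 20 UMIs (3.05% and 4.93%) and without thinning. Depth differed, as 441 XX -KTS KO germ-like cells were too shallow to thin, against 52 of XX WT. A shallow cluster (median 4269 UMIs) held 41.3% of XX -KTS KO and 6.01% of XX WT germ-like cells. The part of depth in these shares was not tested. In XY the shares were 60.3% and 68.7% in WT, 63.5% and 60.1% in -KTS KO and 67.0% and 62.8% in +KTS KO, with WT overlapping both. These shares were not tested.

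**Figure D5:**
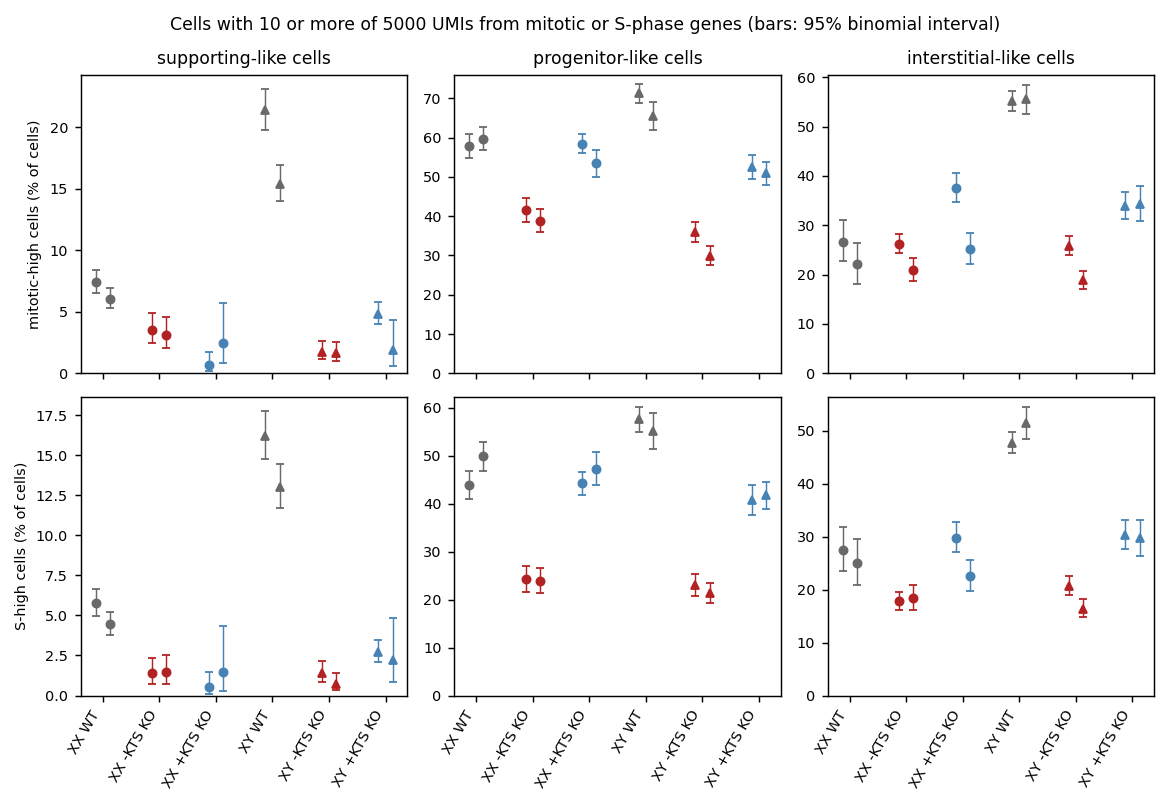
Percent of cells called mitotic-high (upper row) and S-high (lower row) in each library, thinned to 5000 UMIs per cell, for supporting-like, progenitor-like and interstitial-like cells, with 95% exact binomial bars; grey is WT, red -KTS KO and blue +KTS KO. XY WT libraries have the highest shares in each panel, and the -KTS KO libraries of supporting-like and progenitor-like cells lie below the WT libraries of their sex.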

How the data were processed

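Single-cell suspensions of E12 gonads (12 libraries, 2 for each of the 6 groups) were sequenced with a 10x Genomics 3' kit. Per the labels, the authors aligned and counted with Cell Ranger (version 6.0 and build mm10 in the submitters' processing notes), and deposited raw counts of UMIs per gene and barcode, with no normalization. Total counts were 108111924 to 147968666 UMIs per library. The 51 members and the other gene lists were chosen with earlier results of these data known.

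From these counts, a barcode was kept if it had 1000 genes or more and no more than 10% of UMIs from mitochondrial genes (83513 of 103730), and 6537 with the highest Scrublet scores were removed as doublets. The share was set at 0.8% per 1000 barcodes, since Scrublet's own threshold called at most 3 in 9 of 12 libraries. Cells were clustered with Seurat 5.3.0 (sctransform, 2790 of 3000 variable genes after listed cell cycle genes and genes that followed them were left out, 50 components, 20 neighbours, resolution 0.8). Clusters were named from marker lists. UMIs were summed per library over each class (at least 20 cells) and tested with edgeR 4.0.16 (TMM, filterByExpr, 1 quasi-likelihood fit over the 6 groups without replicate block, Benjamini-Hochberg over all genes of the class, 0.05). CPM are scaled by TMM except the ranges over classes. Markers of another class in the sums were added up as CPM. The reads counted are of 3' ends, and transcripts of paralogs or antisense genes that share sequence cannot be told apart.

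For cell states, cells with 5000 UMIs or more (70940 cells, 6036 being shallower) were thinned to 5000, and cells with at least 10 UMIs of a list were called high (5 and 20 as alternatives). Genes named were the members past the threshold with the largest changes, up to 10 in each direction, and always Mki67, Top2a, Cdk1, Ccnb1, Mcm5, Pcna, Ccne1 and Ccne2, with at most 4 genes from each other list. Scripts were tested on simulated data with 200 changed genes. For XX -KTS KO against XX WT in supporting-like cells the fit recovered 0% of 1.5-fold and 24% of 2-fold changes. For -KTS KO against WT in progenitor-like cells it recovered 5% and 68.5%. At most 16.7% of the calls were false. A gene that did not pass is therefore not shown to be unchanged. Alternatives were DESeq2 1.42.0 size factors and test, no low-count filter, doublets kept, other clusterings, a replicate block and leaving out each replicate; those named as such were chosen after seeing the data.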

Additional observations from a re-analysis of the deposited data

Results flagged for a closer look

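In supporting-like cells the response to loss of -KTS differed between XX and XY by a test of the difference itself (edgeR, interaction contrast, adjusted over all genes) for 13 of the 51 genes, where 3.78% of all genes passed in that direction. Without 1 library the count ran from 3 to 20. With only the listed genes left out of the clustering no member was called, whereas clustering on log-normalized values called more. The values are the XY minus the XX log2 fold change. They were -2.62 for Cdc6 (adjusted p = 0.00894), -2.21 for Cdk1 (0.00579), -2.05 for Pclaf (0.0248), -1.93 for Nusap1 (0.0287), -1.92 for Tpx2 (0.0398), -1.77 for Rrm2 (0.0145), -1.72 for Psrc1 (0.0379), -1.66 for Bub1 (0.0421), -1.65 for Cdc45 (0.0377), -1.55 for Top2a (0.0226), -1.53 for Kif23 (0.0398), -1.52 for Cdca8 (0.0325) and -1.27 for Rrm1 (0.00965). Both sexes' fold changes were negative in all 13, from -0.32 for Cdc45 to -1.52 for Kif23 in XX and from -1.78 for Rrm1 to -3.29 for Cdc6 in XY. All 13 genes were also higher in XY WT than in XX WT at an adjusted p under 0.05, and the WT libraries enter both.

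The response to loss of +KTS in supporting-like cells differed for 2 of the 51 genes, near the 3.11% of all genes that passed in that direction, and for 0 to 3 without 1 library. It differed for Cdc45, by -1.82 (adjusted p = 0.0496; -0.68 in XX and -2.49 in XY), and for Rrm1, by -1.24 (adjusted p = 0.0119; -0.04 in XX and -1.28 in XY). In interstitial-like cells Bub1 differed between the sexes under both losses. The difference was -1.37 for -KTS (adjusted p = 0.0347; 0.27 in XX and -1.10 in XY) and -1.45 for +KTS (adjusted p = 0.0179; 0.47 in XX and -0.98 in XY), and both share the WT libraries. Bub1 was the 1 member called in each. Without 1 library no member was called for -KTS, whichever of the 8 was left out, and 0 to 2 were for +KTS. In WT Bub1 stood at 20.6 and 20.9 CPM in XX and 53.6 and 57.9 in XY.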

How the results depend on the processing

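Counts are members called of 51, and sums are log2 changes of the summed level. Under the alternatives, here and above, only members were counted. The share of all genes called stands beside none of these counts. Of 557 alternative values of counts and sums, 418 kept their direction and their side or size, and of 1047 values of single genes 929 did, 102 lost the call and 16 changed sign. The cause of the changes was not tested. In +KTS KO supporting-like cells 202 and 275 cells stand behind 1 library of each sex.

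In supporting-like cells, clustering with the cell cycle genes gave 4 calls in XX -KTS KO and 4 in XX +KTS KO, mitotic sums of -0.17, -2.76, -0.33 and -2.65 in XX -KTS KO, XY -KTS KO, XX +KTS KO and XY +KTS KO, an S-phase sum of -0.37 in XX +KTS KO, and 2.21 for XY against XX WT. Log-normalized clustering gave 7 and 1 calls, mitotic sums of 0.33, -2.67, -0.79 and -2.88, an S-phase sum of -0.40 in XX +KTS KO, and 2.69 between the sexes. With only the listed genes left out there were 3 calls in XX -KTS KO gonads and 3 in XY +KTS KO, with mitotic sums of 0.52, -2.60, 4.59 and 1.05, S-phase sums of 1.12 and -0.098 in XX and XY +KTS KO, and 2.69 between the sexes. With the Cyp11a1-led clusters there were 9, 0 and 24 calls in XX -KTS KO, XX +KTS KO and XY +KTS KO, and sums of 0.50 and -0.030 in XX +KTS KO gonads and -0.98 and -0.83 in XY +KTS KO. Resolution 1.2 gave 28 calls and no count filter 34 in XX -KTS KO, and keeping doublets 19 in XX +KTS KO. Without 1 library the calls were 3 to 12 in XX -KTS KO, 44 to 48 in XY -KTS KO, 1 to 24 in XX +KTS KO, 39 to 47 in XY +KTS KO and 11 to 32 between the WT sexes.

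Signs of named genes changed in XX -KTS KO for Mki67 (0.19 with log-normalized values and 0.69 with only the listed genes left out) and Top2a (0.20 and 0.30). They changed in XX +KTS KO with only the listed genes left out for Ccnb1 (4.20), Cdk1 (3.97), Mki67 (5.28), Pcna (0.71) and Top2a (5.01), and with the Cyp11a1-led clusters for Ccnb1 (0.21), Cdk1 (0.33), Mki67 (0.33) and Top2a (0.31). In XY +KTS KO they changed with only the listed genes left out for Ccnb1 (1.05), Mki67 (0.89) and Top2a (0.80).

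In progenitor-like cells the -KTS KO count was 28 with doublets kept, where the S-phase sum was -0.44; that sum was -0.80 with the cell cycle genes kept and -0.37 with only the listed genes left out. The +KTS KO count was 32 with the cell cycle genes kept (sums 1.05 and 0.42), 1 with log-normalized values, 0 with doublets kept, 4 with no filter and 5 by DESeq2, and the S-phase sum was 0.028 with only the listed genes left out. Without 1 library the counts were 33 to 39 and 0 to 6. In interstitial-like cells the -KTS KO count was 47 with the cell cycle genes kept (sums -3.06 and -1.31) and at resolution 1.2. The +KTS KO count was 11 with the cell cycle genes kept (sums 0.29 and -0.79), 26 with log-normalized values (mitotic sum -0.93), 2 at resolution 1.2, 6 with only the listed genes left out, 4 with no filter and 2 by DESeq2. Without 1 library the counts were 20 to 35 and 0 to 2. In germ-like cells no filter gave 3 for -KTS KO, and no left-out library gave a call.

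The sex difference in supporting-like cells counted, for -KTS and +KTS, 33 and 5 with no filter, 36 and 29 with the cell cycle genes kept, 38 and 0 with log-normalized values, 0 and 4 with only the listed genes left out, 5 and 10 with the Cyp11a1-led clusters and 5 and 1 with doublets kept, and 26 for -KTS by DESeq2. Without 1 library it counted 3 to 20 and 0 to 3. In interstitial-like cells it counted 32 and 25 with no filter, 0 and 0 with the cell cycle genes kept, 40 and 29 with log-normalized values, 16 and 11 by DESeq2, 0 for -KTS at resolution 1.2, 0 for +KTS with doublets kept or only the listed genes left out, and 0 and 0 to 2 without 1 library.

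The labels give replicate numbers without saying that a number marks a shared batch, and the correlations of same-numbered deviations did not have 1 sign. They ran from -0.21 to 0.29, and over the 4 classes were 0.145 to 0.294 between XY WT and XY -KTS KO and 0.108 to 0.168 between XX WT and XY -KTS KO, but -0.130 to -0.0883 between XX WT and XX -KTS KO, so a pairing of part of the libraries was not settled. With a replicate block the counts in supporting-like cells were 13, 49, 31, 47 and 30 in the order XX -KTS KO, XY -KTS KO, XX +KTS KO, XY +KTS KO and XY against XX WT, 44 and 2 in progenitor-like, 32 and 1 in interstitial-like and 0 and 0 in germ-like cells, and the sex difference for +KTS in supporting-like cells counted 1. With crossed numbers, chosen after seeing the data, the -KTS KO counts were 41 in progenitor-like and 31 in interstitial-like cells.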
